A study of Mus musculus with 12 samples.

Results

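Transcripts of 9 genes of amyloid precursor processing and amyloid clearance were followed in mouse bone marrow-derived dendritic cells (BM-DCs). The genes were chosen by name: the precursor App and its relative Aplp2, the secretase genes Bace1, Adam10 and Psen2, the degrading enzymes Ide, Ece1 and Mme, and Itm2b. They are 9 of the 53465 genes listed, and 8 of them were among the 14324 genes tested. Mme stood below the minimum of 10 normalized counts in every group and was not tested.

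RNA was sequenced from 12 cultures of BM-DCs grown for 9 days with GM-CSF from bone marrow of wild type C57BL/6 mice aged 12 weeks. Each of 4 groups had 3 libraries. Aβ+LPS cultures received oligomers of Aβ1-42 at 0.5 µM for 4 days and LPS, a bacterial cell wall product that matures dendritic cells, at 100 ng/ml for 18 h. Aβ cultures received the oligomers alone, LPS cultures received LPS alone, and Ctrl cultures received neither. The peptide was human and recombinant, and no library with its scrambled counterpart was analysed here. Whether the 3 cultures of a group came from separate mice is not given in the sources used here, so the p-values measure the spread between these cultures, which may be technical.

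App is a membrane protein that can be cut by several routes. Adam10 is the main α-secretase and cuts within the Aβ stretch, whereas Bace1, the β-secretase, cuts at its start and γ-secretase, with a presenilin such as Psen2 as catalytic subunit, then releases the peptide from the membrane. Ide, Mme (neprilysin) and Ece1 are metallopeptidases that can degrade Aβ, and Itm2b (BRI2) is a membrane protein that binds App and can hinder its processing.

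Coding stretches are shown for the cut sites of App and Itm2b and for catalytic motifs of the enzymes. They come from the GENCODE vM21 annotation of GRCm38, are read 5′ to 3′ on the coding strand, and are spliced where they span more than 1 exon. In App, capitals mark the first 4 codons after the β-secretase cut, codons 672 to 675 of 770. In Itm2b, they mark the 2 codons before the cut by furin. In the enzymes they mark the codons of a catalytic motif: an aspartate motif in Bace1 and Psen2, and a zinc-binding motif in Adam10, Ece1, Ide and Mme. For Bace1 and Psen2, 1 of the 2 matches to the motif is shown.
App, chr16:84962794-84965720, minus strand, exons 16 and 17: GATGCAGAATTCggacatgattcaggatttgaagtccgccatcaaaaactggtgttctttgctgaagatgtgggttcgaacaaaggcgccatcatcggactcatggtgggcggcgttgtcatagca
Itm2b, chr14:73363061-73363141, minus strand, exon 6: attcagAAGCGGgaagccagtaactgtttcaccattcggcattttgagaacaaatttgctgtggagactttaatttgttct
Bace1, chr9:45852891-45852923, plus strand, exon 2: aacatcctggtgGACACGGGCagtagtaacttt
Psen2, chr1:180228924-180228959, minus strand, exon 10: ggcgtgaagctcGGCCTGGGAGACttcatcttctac
Adam10, chr9:70754284-70761597, plus strand, exons 9 and 10: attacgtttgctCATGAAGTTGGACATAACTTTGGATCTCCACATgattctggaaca
Ece1, chr4:137957160-137957198, plus strand, exon 17: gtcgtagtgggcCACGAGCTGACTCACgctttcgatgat
Ide, chr19:37329124-37329162, minus strand, exon 2: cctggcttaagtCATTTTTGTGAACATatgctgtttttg
Mme, chr3:63362009-63362047, plus strand, exon 18: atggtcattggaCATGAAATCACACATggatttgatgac

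The libraries held 23415609 to 29690965 reads in genes. Levels are given as normalized counts, which are reads per gene divided by a size factor per library, as CPM, which are scaled to the reads in genes of each library, and as RPKM, which are CPM scaled to exon length, where genes are compared with each other. With scaling to the total reads of each library, the median log2 fold change of all genes tested in LPS vs. Ctrl was 0.117. It was 0.00448 with the deposited normalization. For Aβ vs. Ctrl the medians were 0.115 and 0.0218 in the same order. Scaling to total reads was an alternative added after the data were seen. It is named wherever it changed a call of the 9 genes or a count of pathway genes given below. The marker counts that follow use the deposited normalization. They stand beside 35.1% of all genes tested that were higher and 33.7% that were lower in Aβ vs. Ctrl. Both dendritic cell and macrophage transcripts were plentiful, and marker lists shifted between groups. Itgax averaged 958 CPM in Aβ+LPS, 938 CPM in Aβ, 1318 CPM in LPS and 1129 CPM in Ctrl cultures, and Csf1r 823, 807, 943 and 933 CPM in the same order of groups, while Cd209a was at 0 reads in 8 libraries. Of the 8 dendritic cell markers, 5 rose and 2 (Itgax and Cd209a) fell in Aβ vs. Ctrl, with Ccr7 at 147 CPM in Aβ and 3.0 CPM in Ctrl cultures, and their sum was 3540 to 3706 CPM in Aβ and 3340 to 3417 CPM in Ctrl cultures. Flt3 and Cd209a were tested only because the group with more reads reached the minimum. Of the 7 macrophage markers, 2 rose and 5 fell in Aβ vs. Ctrl, and their summed level was 5259 to 5567 CPM in Aβ and 3701 to 3770 CPM in Ctrl cultures. The 2 risers were Cd14, at 2362 CPM in Aβ and 180 CPM in Ctrl cultures, and Adgre1, at 1354 CPM in Aβ and 786 CPM in Ctrl cultures. Mrc1, among the 5 that fell, was at 29.4 CPM in Aβ and 706 CPM in Ctrl cultures. The 7 markers of fibroblasts and stroma summed to 37.7 to 45.5 CPM in Aβ cultures, nearly all of it Dcn (38.5 CPM), and to 0.885 to 1.24 CPM in Ctrl cultures, where Pdgfra (0.853 CPM) was the main part, and Col1a2 was at 0 reads in 10 libraries. The 10 neutrophil markers summed to 52.3 to 66.7 CPM in Aβ and 27.3 to 38.8 CPM in Ctrl cultures, mostly S100a8. Of the 6 tested, 2 (S100a8 and Camp) were higher and 2 (Ltf and Cxcr2) lower in Aβ vs. Ctrl. Camp averaged 7.84 normalized counts in Ctrl cultures and was tested only because treated groups reached the minimum. Osteoclast markers averaged a sum of 865 CPM in Aβ+LPS, 836 CPM in Aβ, 880 CPM in LPS and 436 CPM in Ctrl cultures. Nearly all of it was Acp5, Ctsk and Dcstamp. Markers of mast cells and basophils summed to 22.6 CPM in Aβ and 5.85 CPM in Ctrl cultures. In Aβ cultures this was mostly Gata2 (11.7 CPM) and Kit (10.6 CPM), while Mcpt8 was at 0 reads in 9 libraries, Ms4a2 in 10 and Fcer1a in 11. Endothelium markers, mostly Vwf, summed to 111 CPM in Aβ and 231 CPM in Ctrl cultures. Of the 4 endothelium markers tested, 2 (Pecam1 and Kdr) rose in Aβ vs. Ctrl. Only Vwf fell, to 93.1 CPM in Aβ from 225 CPM in Ctrl cultures. The part of these shifts in the results below was not tested, and in bulk RNA fewer cells of a type and less RNA per cell cannot be told apart.

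In Aβ vs. Ctrl, 2 of the 8 genes tested rose and 6 fell. Ece1 rose 2.02-fold, with Bace1 as the other riser, and Itm2b, Psen2 and Adam10 fell by 38.7 to 48.3%. Over all genes tested, 68.8% passed in this comparison (35.1% as higher and 33.7% as lower). The median log2(fc) of the 8 genes was -0.37, beside 0.0218 over all genes tested, and only Ece1 exceeded 1 in absolute log2(fc). The libraries of the Aβ and Ctrl groups did not overlap for any of the 8 genes, but the share of all genes without overlap was not counted. An unadjusted p under 0.05 (limma) was reached by 71% of all genes tested in this comparison.

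In LPS vs. Ctrl, 1 of the 8 genes rose (Ece1), 6 fell and Ide did not pass. Over all genes tested, 46.3% passed, 23.8% as higher and 22.5% as lower. The log2(fc) of the 8 genes ran between -0.52 and 0.22 with a median of -0.28, beside 0.00448 over all genes. With scaling to total reads, 4 of the 8 genes still fell, since Itm2b (log2(fc) = -0.04, limma adjusted p = 0.31) and Bace1 (log2(fc) = -0.19, limma adjusted p = 0.057) no longer passed. That scaling also changed the direction split of all genes that passed, with 71.3% of them higher against 51.3% with the deposited normalization. LPS vs. Ctrl and Aβ vs. Ctrl share the Ctrl libraries.

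In Aβ+LPS vs. LPS, 3 genes rose (Ece1, Bace1 and App), 4 fell (Itm2b, Psen2, Ide and Adam10) and Aplp2 did not pass, beside 56.1% of all genes tested, 27.8% as higher and 28.3% as lower. Their median log2(fc) was -0.08 there, beside 0.0135 over all genes. In Aβ+LPS vs. Aβ, 0 of the 8 genes passed in limma, edgeR or DESeq2, and 1 (Itm2b) had an unadjusted p under 0.05. In limma, 0.14% of all genes tested passed there (0.0279% as higher and 0.112% as lower), and 6.36% had an unadjusted p under 0.05. The log2(fc) of the 8 genes lay between -0.09 and 0.07 in that comparison.

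**Figure D1:**
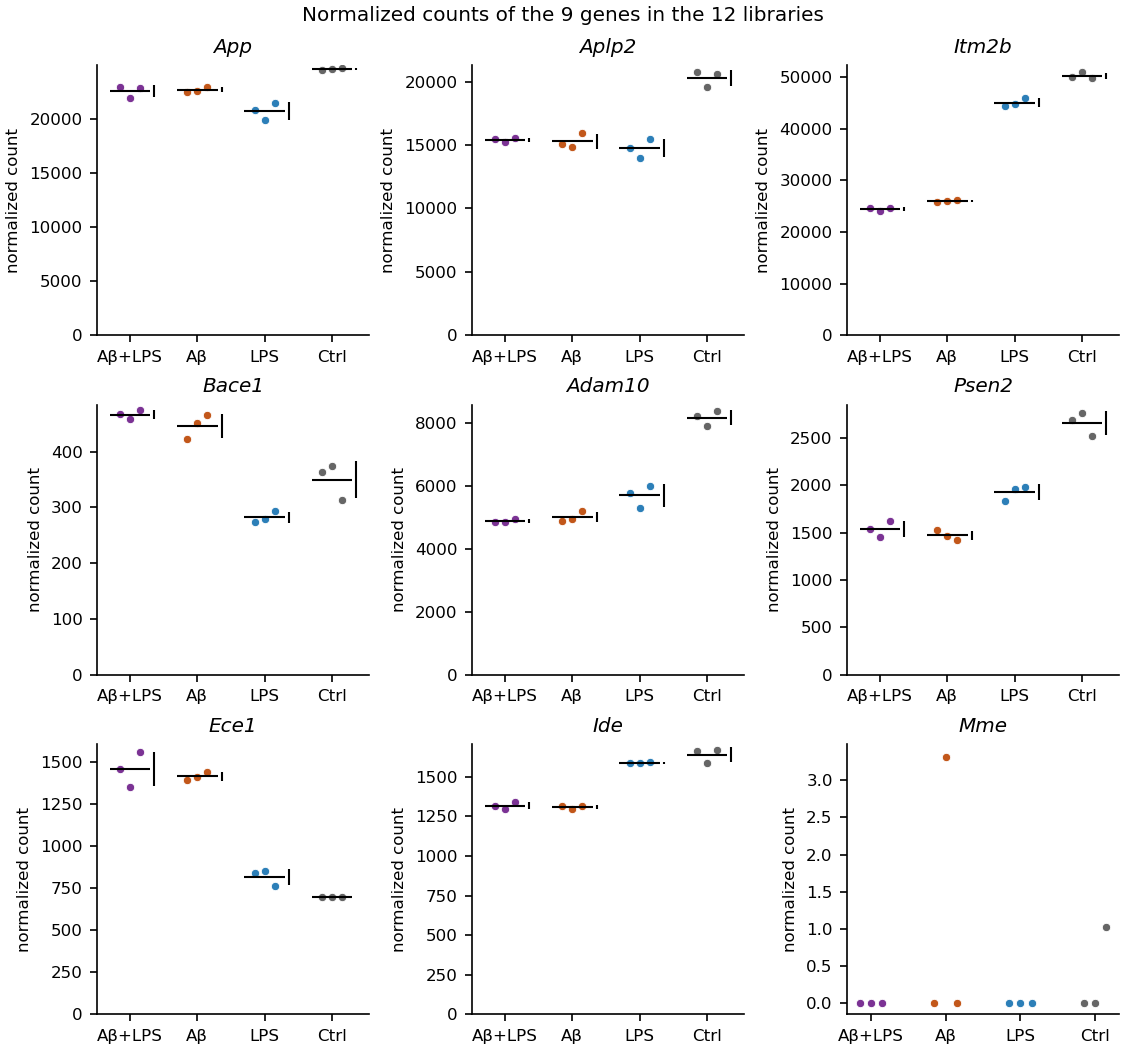
Normalized counts (y axis, linear from 0, 1 panel per gene) of the 9 genes in the libraries of the Aβ+LPS, Aβ, LPS and Ctrl groups (x axis). Points are libraries, horizontal lines group means and vertical lines ± 1 SD (n = 3; neither is drawn for Mme). Aβ+LPS and Aβ libraries lay close together in the 8 panels with counts, and Mme had reads in 2 libraries.

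**Figure D2:**
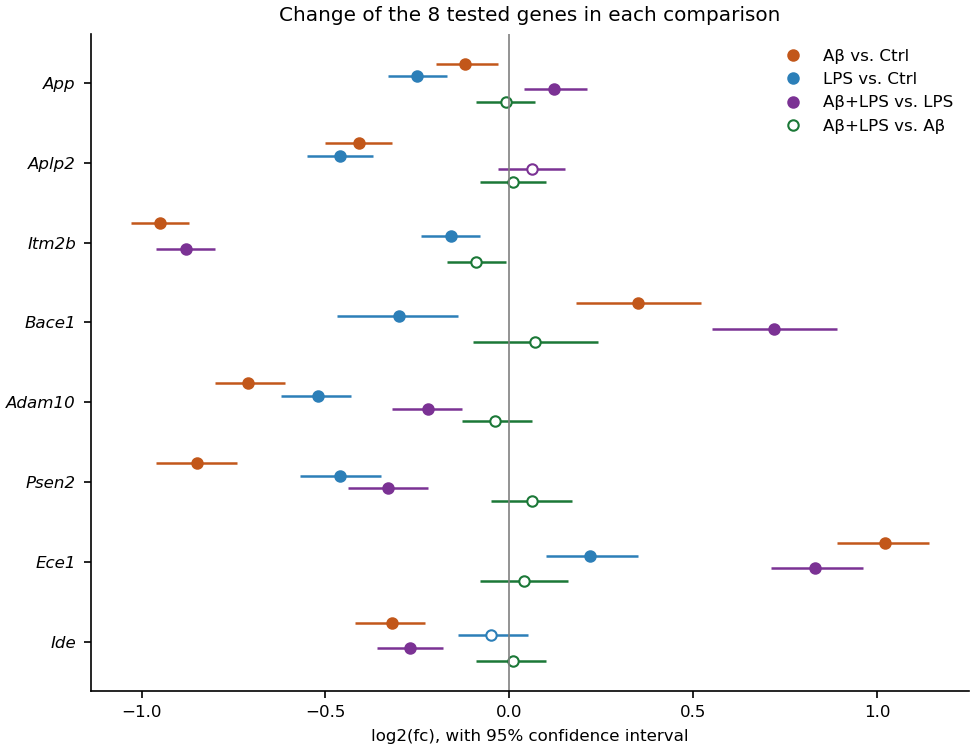
log2(fc) of the 8 genes tested (x axis) with 95% confidence intervals from limma, for the 4 comparisons between groups (colours). Filled points passed an adjusted p of 0.05 over the 14324 genes, and all 8 open points of Aβ+LPS vs. Aβ lay between -0.09 and 0.07.

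App (ENSMUSG00000022892, chr16:84949685-85173766, minus strand), the source of Aβ, was among the more abundant transcripts of these cells. It had 22930, 21956 and 22851 normalized counts in Aβ+LPS cultures, 22539, 22640 and 22985 in Aβ cultures, 20843, 19889 and 21496 in LPS cultures, and 24560, 24646 and 24737 in Ctrl cultures. All 9 libraries with a treatment were below the Ctrl libraries, and LPS libraries were the lowest. App fell in LPS vs. Ctrl (log2(fc) = -0.25, SE 0.04, limma adjusted p = 2.2e-05). The fall in Aβ vs. Ctrl was smaller, with a log2(fc) of -0.12 (SE 0.04, limma adjusted p = 0.012), and was not seen with scaling to total reads, where the log2(fc) was -0.02 (limma adjusted p = 0.57). With LPS present, App rose in Aβ+LPS vs. LPS by a log2(fc) of 0.12 (SE 0.04, limma adjusted p = 0.012). On the length-corrected scale, App ranked 622 in Aβ+LPS, 618 in Aβ, 680 in LPS and 615 in Ctrl cultures among the genes tested. The 3 genes most like App in their log2 values over the 12 libraries, by a rule that took the highest correlation among genes with a mean of at least 100, were Uso1 (Pearson r = 0.978), Prcp (r = 0.969) and Maoa (r = 0.963). These correlations are descriptions over libraries that share their groups.

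Aplp2 (ENSMUSG00000031996, chr9:31149557-31211815, minus strand), a relative of App without an Aβ stretch, stood above App per length, with an RPKM of 101 in Aβ+LPS, 100.0 in Aβ, 98.3 in LPS and 125 in Ctrl cultures, against 66.8, 67.5, 62.5 and 68.6 for App. Its normalized counts were 15460, 15230 and 15537 in Aβ+LPS cultures, 15075, 14843 and 15918 in Aβ cultures, 14786, 14008 and 15451 in LPS cultures, and 20769, 19580 and 20576 in Ctrl cultures. The 3 treated groups overlapped one another and stood clear of the Ctrl libraries. Aplp2 fell in Aβ vs. Ctrl (log2(fc) = -0.41, SE 0.04, limma adjusted p = 2.6e-08) and in LPS vs. Ctrl (log2(fc) = -0.46, SE 0.04, limma adjusted p = 1.3e-08). Its log2(fc) in Aβ+LPS vs. LPS was 0.06 with a 95% confidence interval of -0.03 to 0.15. Aplp2 per App, taken within each library so that no scaling enters it, was 1.51 ± 0.0221 in Aβ+LPS, 1.49 ± 0.0414 in Aβ, 1.57 ± 0.0162 in LPS and 1.82 ± 0.0585 in Ctrl cultures (SD, n = 3 each). Aplp1, the other relative and mostly known from neurons, rose in Aβ vs. Ctrl to 174 ± 10.9 normalized counts in Aβ, against 62.9 ± 12.9 in Ctrl cultures (SD, n = 3 each; log2(fc) = 1.47, limma adjusted p = 1.6e-08). It rose in LPS vs. Ctrl (0.61) and Aβ+LPS vs. LPS (0.80) as well.

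Itm2b (ENSMUSG00000022108, chr14:73362226-73385289, minus strand) was the most abundant of the 9 transcripts and had the lowest log2(fc) of them with the oligomers. Furin cuts the Itm2b protein at the 2 codons capitalised in its sequence. Normalized counts were 24698, 24000 and 24705 in Aβ+LPS cultures, 25850, 26044 and 26123 in Aβ cultures, 44336, 44815 and 45980 in LPS cultures, and 50009, 50979 and 49803 in Ctrl cultures. The groups did not overlap in any of the comparisons. Itm2b fell by a log2(fc) of 0.95 in Aβ vs. Ctrl (SE 0.04, limma adjusted p = 1.9e-15) and by 0.88 in Aβ+LPS vs. LPS (SE 0.04, limma adjusted p = 1.9e-14). Its log2(fc) of -0.09 in Aβ+LPS vs. Aβ did not pass (limma adjusted p = 0.71). The fall of Itm2b in LPS vs. Ctrl was small (log2(fc) = -0.16, SE 0.04, limma adjusted p = 0.0019), and it is 1 of the calls lost with scaling to total reads. Per length, Itm2b moved to rank 112 in Aβ+LPS and 101 in Aβ cultures, against 56 in LPS and 51 in Ctrl cultures. Its relative Itm2c went the other way, at 7019 ± 212 normalized counts in Aβ and 5382 ± 96.8 in Ctrl cultures (SD, n = 3 each; log2(fc) = 0.38, limma adjusted p = 1.2e-08). Itm2b made up 76.0% ± 0.186 of the RPKM of both genes in Aβ+LPS, 77.2% ± 0.617 in Aβ, 89.4% ± 0.236 in LPS and 89.5% ± 0.0900 in Ctrl cultures (SD, n = 3 each). Furin, the protease that trims it, rose to 2638 ± 134 normalized counts in Aβ, against 1630 ± 174 in Ctrl cultures (SD, n = 3 each; log2(fc) = 0.70, limma adjusted p = 1e-09). Itm2a, the third gene of the family, had 18.8 ± 1.90 normalized counts in Aβ and 2.58 ± 2.72 in Ctrl cultures (SD, n = 3 each), and no test is given because only groups with oligomers reached the minimum.

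Bace1 (ENSMUSG00000032086, chr9:45838580-45864399, plus strand) was the least abundant of the 8 genes tested, at an RPKM of 2.83 in Aβ+LPS, 2.71 in Aβ, 1.74 in LPS and 2.0 in Ctrl cultures. Its normalized counts were 467, 459 and 474 in Aβ+LPS cultures, 423, 451 and 465 in Aβ cultures, 274, 279 and 294 in LPS cultures, and 363, 374 and 313 in Ctrl cultures. Libraries with oligomers were above every other library, and LPS libraries were below the Ctrl libraries. Bace1 rose in Aβ vs. Ctrl (log2(fc) = 0.35, SE 0.08, limma adjusted p = 0.00061) and fell in LPS vs. Ctrl with the deposited normalization (log2(fc) = -0.30, SE 0.08, limma adjusted p = 0.004). Bace1 also rose in Aβ+LPS vs. LPS (log2(fc) = 0.72, SE 0.08, limma adjusted p = 1.2e-07). Exons of Bace1 share 975 bases with Rnf214 on the opposite strand, and the strand setting of the counting is not given in the sources used here, so reads of the pair may not be fully separated. Bace2, its relative, had at most 9.93 normalized counts in any library and was not tested.

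Adam10 (ENSMUSG00000054693, chr9:70678997-70780229, plus strand), the main α-secretase, had 4832, 4851 and 4946 normalized counts in Aβ+LPS cultures, 4864, 4945 and 5193 in Aβ cultures, 5773, 5297 and 6004 in LPS cultures, and 8207, 7900 and 8357 in Ctrl cultures. Libraries with oligomers were the lowest and overlapped each other, LPS libraries were in between, and Ctrl libraries were the highest. Adam10 fell in Aβ vs. Ctrl (log2(fc) = -0.71, SE 0.05, limma adjusted p = 7.4e-12), in LPS vs. Ctrl (log2(fc) = -0.52, SE 0.05, limma adjusted p = 4.5e-09) and in Aβ+LPS vs. LPS (log2(fc) = -0.22, SE 0.05, limma adjusted p = 0.0003). Adam17, the other well known α-secretase and the sheddase of TNF, rose in all 3 comparisons, to 7897 ± 151 normalized counts in Aβ against 5886 ± 23.1 in Ctrl cultures (SD, n = 3 each; log2(fc) = 0.42, limma adjusted p = 3e-08). Adam10 made up 47.9% ± 0.458 of the RPKM of both in Aβ+LPS, 48.0% ± 0.413 in Aβ, 55.2% ± 1.0 in LPS and 66.9% ± 0.553 in Ctrl cultures (SD, n = 3 each). Adam10 per Bace1, the ratio of α- to β-secretase RPKM, was 13.4 to 13.6 in Aβ+LPS, 14.2 to 14.9 in Aβ, 24.5 to 27.2 in LPS and 27.3 to 34.5 in Ctrl cultures, with no overlap between groups.

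Psen2 (ENSMUSG00000010609, chr1:180227004-180263438, minus strand), a presenilin that carries the catalytic aspartates of γ-secretase, had 1536, 1454 and 1619 normalized counts in Aβ+LPS cultures, 1524, 1459 and 1426 in Aβ cultures, 1835, 1963 and 1984 in LPS cultures, and 2683, 2764 and 2519 in Ctrl cultures. The order of groups was that of Adam10, with Aβ+LPS and Aβ libraries overlapping. Psen2 fell in Aβ vs. Ctrl (log2(fc) = -0.85, SE 0.05, limma adjusted p = 3.5e-12), in LPS vs. Ctrl (log2(fc) = -0.46, SE 0.05, limma adjusted p = 2.5e-07) and in Aβ+LPS vs. LPS (log2(fc) = -0.33, SE 0.05, limma adjusted p = 1.8e-05). Of the other subunits of γ-secretase, Ncstn (nicastrin, a glycoprotein) rose in Aβ vs. Ctrl (log2(fc) = 0.27, limma adjusted p = 9.7e-06). Aph1c fell (log2(fc) = -0.54, limma adjusted p = 8.8e-10), but Aph1b and Aph1c are near-identical copies whose reads the counting may have split.

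**Figure D3:**
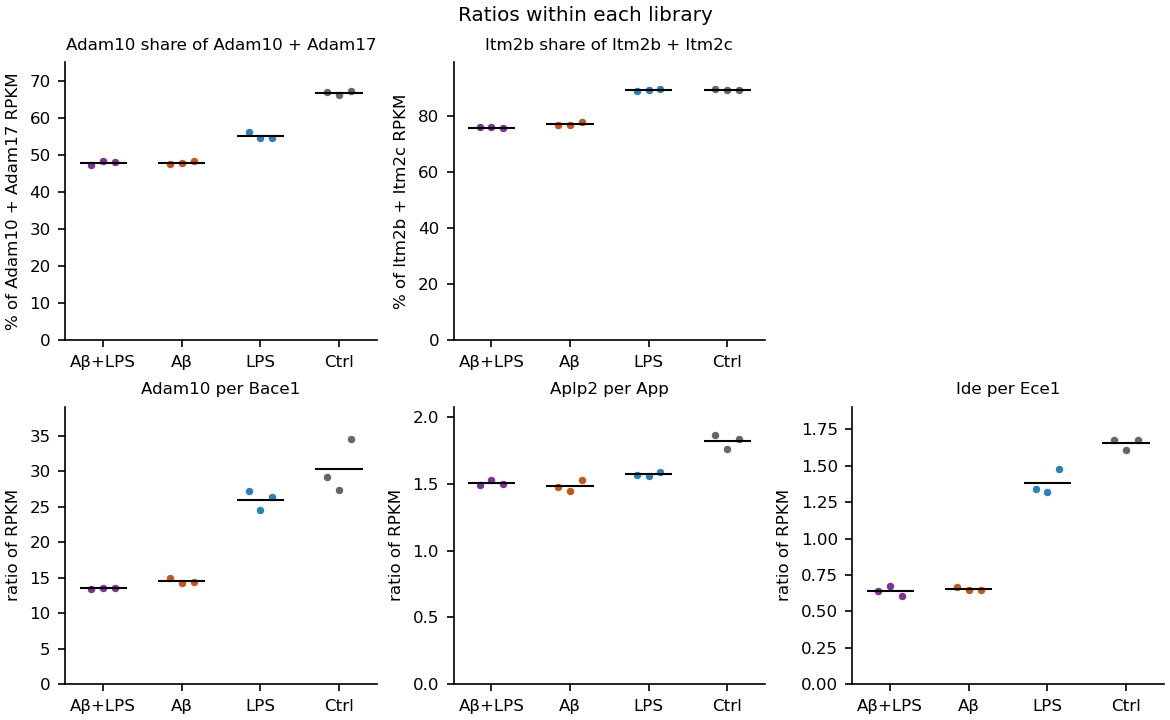
Ratios within each library (y axis, linear from 0, in % of summed RPKM in the upper row and as a ratio of RPKM in the lower row) in the Aβ+LPS, Aβ, LPS and Ctrl groups (x axis). Points are libraries and lines group means (n = 3). The share of Adam10 in the summed RPKM of Adam10 and Adam17 was 47.4 to 48.4% in the 6 libraries with oligomers and 66.2 to 67.3% in Ctrl libraries, and the Itm2b share was 75.8 to 77.8% in libraries with oligomers and 89.1 to 89.6% in the others.

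Ece1 (ENSMUSG00000057530, chr4:137862237-137965229, plus strand), the endothelin-converting enzyme, had the widest range of the 8 genes, 1.05 between group means of log2 values. It had 1459, 1352 and 1559 normalized counts in Aβ+LPS cultures, 1390, 1408 and 1441 in Aβ cultures, 836, 849 and 763 in LPS cultures, and 698, 697 and 699 in Ctrl cultures. Libraries with oligomers were far above the rest, and LPS libraries exceeded the Ctrl libraries. Ece1 rose 2.02-fold in Aβ vs. Ctrl (log2(fc) = 1.02, SE 0.06, limma adjusted p = 1e-12) and 1.78-fold in Aβ+LPS vs. LPS (log2(fc) = 0.83, SE 0.06, limma adjusted p = 6.9e-11). In LPS vs. Ctrl the rise was smaller (log2(fc) = 0.22, SE 0.06, limma adjusted p = 0.0035). By the rule used for App, the genes most like Ece1 over the 12 libraries were Mmp10 (r = 0.995), Gbe1 (r = 0.995) and Abcc4 (r = 0.994).

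Ide (ENSMUSG00000056999, chr19:37268743-37337852, minus strand), the insulin-degrading enzyme, moved against Ece1 in the presence of oligomers. It had 1316, 1296 and 1342 normalized counts in Aβ+LPS cultures, 1318, 1295 and 1317 in Aβ cultures, 1585, 1587 and 1597 in LPS cultures, and 1665, 1588 and 1669 in Ctrl cultures. The 6 libraries with oligomers were below the other 6, and LPS and Ctrl libraries overlapped. Ide fell in Aβ vs. Ctrl (log2(fc) = -0.32, SE 0.05, limma adjusted p = 1.8e-06) and in Aβ+LPS vs. LPS (log2(fc) = -0.27, SE 0.05, limma adjusted p = 3e-05). In LPS vs. Ctrl its log2(fc) was -0.05, with a 95% confidence interval of -0.14 to 0.05, and the sign turned with scaling to total reads (log2(fc) = 0.07). Ide per Ece1 was 0.64 ± 0.0347 in Aβ+LPS, 0.655 ± 0.0128 in Aβ, 1.38 ± 0.0859 in LPS and 1.66 ± 0.0433 in Ctrl cultures (SD, n = 3 each).

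Mme (ENSMUSG00000027820, chr3:63241537-63386030, plus strand), which encodes neprilysin, had 4 reads among the 317170872 of all libraries. They came from 2 libraries, 3 reads in 1 Aβ library and 1 read in 1 Ctrl library, and the other 10 libraries held 0 reads. For those 10 libraries, a count of 0 allows up to 3 reads, that is 0.101 to 0.124 CPM depending on the depth of the library, and this limit covers counting error only. The Aβ library with 3 reads stood at 0.128 CPM and the Ctrl library with 1 read at 0.0369 CPM, while Ide and Ece1 were counted in every library.

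The response to both agents together was asked by the interaction, the effect of Aβ with LPS minus its effect without LPS, which equals the effect of LPS with Aβ minus its effect without. It was positive for 5 of the 8 genes (App, Aplp2, Bace1, Psen2 and Adam10) and did not pass for Ide, Ece1 and Itm2b, beside 31.7% of all genes tested, 15.2% as positive and 16.6% as negative. For Psen2 it was 0.53 (SE 0.07, limma adjusted p = 1e-05), for Adam10 0.48 (SE 0.06, limma adjusted p = 4.3e-06) and for Aplp2 0.48 (SE 0.06, limma adjusted p = 2.8e-06). All 3 fell with either agent alone, and Aβ+LPS libraries overlapped those with Aβ alone, so the fall with both was smaller than the sum of the single falls. These 3 genes also passed with scaling to total reads, at 0.41 for Psen2 and 0.36 for both Adam10 and Aplp2.

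For App and Bace1 the interaction depended on the scaling. It was 0.24 for App (SE 0.06, limma adjusted p = 0.0021), and 0.12 with total reads (limma adjusted p = 0.072). For Bace1, which rose with Aβ alone and fell with LPS alone, it was 0.37 (SE 0.11, limma adjusted p = 0.017), against 0.25 with total reads (limma adjusted p = 0.097) and 0.33 without Aβ replicate 1 (limma adjusted p = 0.051). With total reads, 3 of the 8 genes were positive and Ece1 was negative (-0.30, limma adjusted p = 0.0058). Of all genes that passed, 26.5% were then positive, against 47.8% with the deposited normalization.

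**Figure D4:**
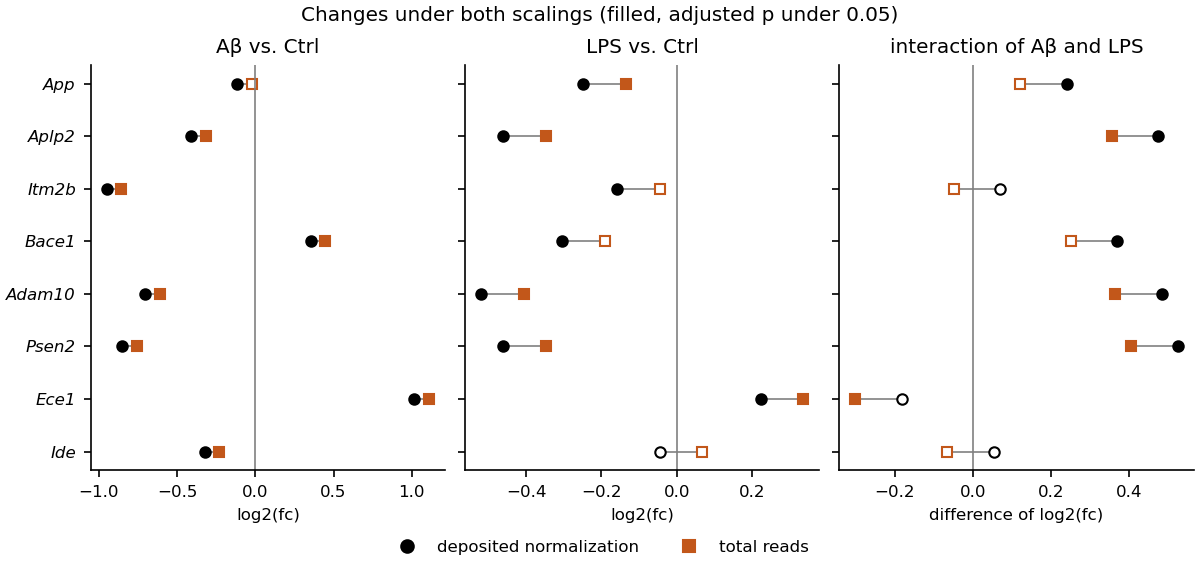
log2(fc) of the 8 genes in Aβ vs. Ctrl and LPS vs. Ctrl, and the interaction as a difference of log2(fc) (x axes), with the deposited normalization (circles) and with scaling to total reads in genes (squares). Filled symbols passed an adjusted p of 0.05. The shift was the same way for all genes of a panel, and App in Aβ vs. Ctrl (-0.12 and -0.02) and Itm2b in LPS vs. Ctrl (-0.16 and -0.04) lost their calls.

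Further genes of the pathway came from 8 lists made from textbook knowledge, which hold 58 gene symbols besides the 9, of which 50 were tested. The lists were chosen with earlier results of these data known, so the shares below are descriptions and no test of the pathway. Of these 50, 24 rose and 18 fell in Aβ vs. Ctrl, 84.0% in all beside 68.8% of all genes tested. In LPS vs. Ctrl 17 rose and 16 fell (66.0% beside 46.3%), and in Aβ+LPS vs. LPS 24 rose and 14 fell (76.0% beside 56.1%). For 5 of the 50, Ctrl cultures averaged under 10 normalized counts, so these genes were tested only because another group was higher. Scaling to total reads changed 9 calls in LPS vs. Ctrl (to 21 higher and 11 lower), 2 in Aβ vs. Ctrl (to 25 and 17) and 3 in Aβ+LPS vs. LPS (to 21 and 14).

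Among the metallopeptidases that can degrade Aβ, 4 of the 9 tested rose and 4 fell in Aβ vs. Ctrl, beside 35.1% and 33.7% of all genes tested. The risers besides Ece1 were matrix metalloproteinases. Mmp9 (gelatinase B) had 6504 ± 212 normalized counts in Aβ and 325 ± 37.0 in Ctrl cultures (SD, n = 3 each; log2(fc) = 4.33, limma adjusted p = 3.7e-23). Mmp2 (log2(fc) = 2.54, limma adjusted p = 1.5e-15) and the membrane-bound Mmp14 (log2(fc) = 1.97, limma adjusted p = 4.4e-18) rose with it, and all 3 also rose in LPS vs. Ctrl, by 2.81 for Mmp9, 1.54 for Mmp2 and 1.09 for Mmp14. Ace, the angiotensin-converting enzyme, fell to 24.0 ± 8.03 normalized counts in Aβ, against 97.1 ± 7.86 in Ctrl cultures (SD, n = 3 each; log2(fc) = -2.02, limma adjusted p = 1.8e-07). Mmel1, a relative of Mme and among the 4 lower genes, had mean normalized counts of 1.54 in Aβ+LPS, 0.953 in Aβ, 13.3 in LPS and 4.58 in Ctrl cultures, and only LPS cultures reached the minimum of 10. With LPS present, in Aβ+LPS vs. LPS, Mmp9 rose by 1.57 and Ace fell (-1.44).

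Genes of the plasmin system moved in both directions in Aβ vs. Ctrl. Serpinb2, an inhibitor of plasminogen activators, had 58006 ± 1744 normalized counts in Aβ, 7896 ± 331 in LPS and 281 ± 48.1 in Ctrl cultures (SD, n = 3 each; log2(fc) = 7.70 in Aβ vs. Ctrl and 4.82 in LPS vs. Ctrl). Plat, the tissue plasminogen activator, had 166 ± 18.5 normalized counts in Aβ and 3.86 ± 1.1 in Ctrl cultures (SD, n = 3 each; log2(fc) = 5.12). Its Ctrl mean was below the minimum, and it was tested only because the treated groups reached that level. In Aβ vs. Ctrl, Plat could therefore be counted only as a riser, and no p-value is given. The inhibitor gene Serpini1 rose too (log2(fc) = 2.82). Plau, the urokinase gene, fell (log2(fc) = -0.81, limma adjusted p = 2.1e-13), and Plg, the gene of plasminogen itself, had 0 reads in every library. In LPS vs. Ctrl, Serpini1 rose by 1.81, and Plat averaged 15.0 normalized counts in LPS cultures. The rises in Aβ+LPS vs. LPS were 2.96 for Serpinb2, 3.46 for Plat and 1.06 for Serpini1.

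Sorting of App and transport of its secretases involve further genes. Of the 15 adaptor and sorting genes tested, 3 rose and 9 fell in Aβ vs. Ctrl, beside 35.1% and 33.7% of all genes tested, and 2 rose and 8 fell in LPS vs. Ctrl, beside 23.8% and 22.5%. With scaling to total reads these became 3 and 8 in Aβ vs. Ctrl, where Vps26a was lost, and 3 and 6 in LPS vs. Ctrl, where Apba3 was gained and Vps26a and Vps35 were lost. Sort1 (sortilin, a sorting receptor) fell to 2790 ± 122 normalized counts in Aβ, against 9240 ± 129 in Ctrl cultures (SD, n = 3 each; log2(fc) = -1.73, limma adjusted p = 8.1e-19). Apba1, an adaptor that binds the tail of App, rose by 1.01 (limma adjusted p = 2.7e-12). Among tissue inhibitors of metalloproteinases and partners of Adam10 and Adam17, 5 of the 9 tested rose and 3 fell in Aβ vs. Ctrl, against the same shares of all genes. Tspan14, a tetraspanin that accompanies Adam10, fell to 901 ± 64.8 normalized counts in Aβ against 3545 ± 120 in Ctrl cultures (SD, n = 3 each; log2(fc) = -1.98, limma adjusted p = 1.8e-18). The other tetraspanin genes tested on this list moved in both directions. Tspan33 rose by 2.14 (limma adjusted p = 9.1e-10) and Tspan5 by 0.49 (limma adjusted p = 7.2e-09). Tspan17 fell (log2(fc) = -0.42, limma adjusted p = 1.2e-05). Timp1 rose by 3.04 (limma adjusted p = 1.9e-18) and Timp2 fell by 1.23 on the log2 scale (limma adjusted p = 1.3e-16). Timp3, which is among the risers counted here, was at 0 reads in all 3 Ctrl libraries and at 11.1 to 14.2 normalized counts in Aβ libraries. It was tested only because the groups with oligomers reached the minimum, so in Aβ vs. Ctrl it could be counted only as a riser. Tspan14 (-1.14) also fell and Timp1 (2.85) also rose in LPS vs. Ctrl. Sort1 (-1.11) fell and Tspan33 (1.84) rose in Aβ+LPS vs. LPS.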

How the data were processed

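RNA from 12 BM-DC cultures was sequenced by the authors as single reads of 100 bp from TruSeq Stranded mRNA libraries. The submitters' processing notes name FastQC 0.11.5, HISAT2 2.1.0, featureCounts 1.6.0, DESeq2, R 3.4.4 and GRCm38. The deposited signal per gene and library is a read count that the authors divided by a size factor of the library. The 6 deposited tables also hold the authors' log2 fold changes, their standard errors, test scores, p-values and GO membership, which were not used.

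Dividing each library by what 1 read was worth gave back whole reads, with 100% of values no more than 0.05 from a whole number. Reads of libraries of 1 group differed by 3.13 to 13.2 times the squared difference of pure counting, so no library was a copy of another.

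Values were modelled in limma 3.58.1 (trend option) as log2(normalized count + 1), with the group of the 12 libraries as only term and 8 residual degrees of freedom. A gene was tested if any group averaged 10 or more normalized counts, which left 14324 genes. Fold changes are on this log2(value + 1) scale. Two-sided p-values were adjusted over all genes tested by the method of Benjamini and Hochberg at 0.05. edgeR 4.0.16 and DESeq2 1.42.0 on the recovered reads (R 4.3.3), other scalings, filters and pseudocounts, a replicate block and leaving out each library were alternatives. RPKM used the union of exons of GENCODE vM21. Python 3.11.15, pandas 2.3.3 and Matplotlib 3.10.9 were used. The fit was tested on simulated data.

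Text names the 9 genes and, per pathway list and comparison, genes past the threshold with an absolute log2(fc) over 1, otherwise the lowest adjusted p in each direction. Ratios within libraries and the other genes named (Furin, Itm2c, Plau, Plg, Bace2, Tspan5, Tspan17, Aph1c in Aβ vs. Ctrl, and marker genes) were picked with their values in view. The 9 genes and the lists were chosen with earlier results of these data known. An exact permutation test of 3 against 3 libraries cannot go below 0.1, so the ratios carry no test. Some items of the pathway lists are not reported here.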

Additional observations from a re-analysis of the deposited data

Results flagged for a closer look

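The effect of Aβ differed with and without LPS in 5 of the 8 genes, beside 31.7% of all genes tested, by the interaction in limma with adjusted p-values over all genes. The difference, on the log2 scale, was 0.24 for App, 0.48 for Aplp2, 0.37 for Bace1, 0.53 for Psen2 and 0.48 for Adam10. With scaling to total reads it no longer passed for App and Bace1. The 5 differences largely restate LPS vs. Ctrl with the sign turned, since log2(fc) in Aβ+LPS vs. Aβ lay between -0.09 and 0.07. The 4 groups each held 3 libraries, too few for a search for single outlying libraries within a group.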

How the results depend on the processing

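Of the results of single genes under the 24 alternative settings, 936 kept their direction and their side of the threshold, 7 changed sign, 6 lost their call and 3 gained one. Of the sign changes, 4 came from leaving out a library in Aβ+LPS vs. Aβ, none of them with a call: the log2(fc) ranged over -0.02056 to 0.01075 for App, -0.0077 to 0.04274 for Aplp2, -0.004794 to 0.02021 for Ide and -0.008504 to 0.09422 for Ece1. The other 3 came with scaling to total reads: Ide in LPS vs. Ctrl (0.06838), and the interaction of Itm2b (-0.04927) and Ide (-0.06595). That scaling also gave 3 genes with a positive and 1 with a negative interaction, against 5 and 0. The number of genes with a negative interaction was 0 to 1 when a library was left out, the 1 being Ece1 without LPS replicate 3 (-0.229) or without Aβ+LPS replicate 3 (-0.2319). The cause was not tested. Over all genes, 2024 were lower in LPS vs. Ctrl with total reads against 3226, and 1322 were positive and 3659 negative in the interaction against 2175 and 2371. In Aβ+LPS vs. Aβ, 4 genes were higher and 16 lower in limma, 20 and 44 with only the libraries compared, 17 and 30 in DESeq2, 10 higher in edgeR, and 9 lower without a filter. With a library left out, 1 to 2 were higher where the number moved, and 6 to 9 lower, or 31 without Ctrl replicate 2. Deviations of libraries with the same number correlated at -0.0861 to 0.0367, and 0 of 12 libraries correlated best with their own number, so the numbers did not pair the libraries. The replicate block left the 2 rising and 6 falling genes of Aβ vs. Ctrl and changed no call of the 8 genes. Depth limits what can be said of Mme and of genes near 10 normalized counts.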
